A study of Rattus norvegicus with 12 samples.

Results

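The translation initiation factors are the proteins that bring the ribosome to a messenger RNA and set it at the start codon. Genes were taken when their symbol in the platform annotation began with Eif and a digit from 1 to 6, and the symbol was the only 1 given for the probe set. This rule found 75 probe sets for 49 genes, of 14217 genes named on the array, and each gene was represented by the probe set with the highest mean log2 signal over the 12 arrays. A filter on low values left 48 of the 49 genes for testing. The remaining gene, Eif2s3y, was below the filter. A further 5 probe sets that name several genes, among them those of Eif5 and Eif3e, were left out.

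The RNA came from cultures of rat anterior pituitary enriched in gonadotropes, the cells that secrete luteinizing hormone (LH) and follicle-stimulating hormone. All donors were adult female Sprague-Dawley rats ovariectomized 2 weeks earlier, with 13 to 15 pituitaries pooled in each experiment. The large-cell fraction of a sedimentation gradient, about 6% of the cells, held 40 to 60% LH-positive cells, against under 7% in the unfractionated suspension, so other pituitary cells were present in every sample. Cells were kept in medium with 0.2 nM estradiol and steroid-stripped serum, and on day 3 they received either vehicle (6 samples) or 10 nM gonadotropin-releasing hormone, GnRH (6 samples), for 40 min. The samples came from 3 preparations called enrichment sets I, II and III, each with 2 vehicle and 2 GnRH samples, and each sample was hybridised to 1 Affymetrix Rat Expression Array 230 2.0.

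Initiation proceeds in steps served by different complexes. The factor eIF2 carries the initiator transfer RNA to the small ribosomal subunit and is recharged with GTP by eIF2B, and 4 kinases, Eif2ak1 to Eif2ak4, block that recharging under stress. The many-subunit eIF3 holds the small subunit, eIF4F reads the messenger RNA cap through eIF4E, unwinds the leader through the eIF4A helicases and is assembled on the scaffold eIF4G, and eIF4E-binding proteins compete for eIF4E. In gonadotrope cell lines GnRH has been reported to act on this machinery through phosphorylation of the proteins, a layer that RNA arrays do not measure.

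The arrays differed in the signal of their controls, while their trimmed mean signals before the scaling used here were nearly equal (497 to 499). The settings of the software that made the deposited signals are not given, and whether it had already scaled them was not tested. Neither the means nor the control signals are read here as a rank of the arrays by strength. The amount of sample RNA on each was not tested. Bacterial hybridisation controls, which are added at fixed amounts, had geometric mean signals of 2264 to 11705 on 5 arrays (all of set I, and vehicle 5 of set III) and of 53482 to 320024 on the other 7. A second group of 27 bacterial control probe sets had geometric mean signals of 14.8 to 22.4 on those 5 arrays and 52.8 to 183 on the other 7. These means were taken as the background of each array. This treats their targets as absent from the samples, which was not tested. Vehicle 3 was least like the others: its Spearman correlations had a median of 0.336, where those of the remaining arrays had medians of 0.618 to 0.686. Of the 576 values of the 48 genes, 14 in 11 genes were at or below the background controls of their own array, 7 of them in vehicle 3. Of 6 defining gonadotrope markers, Lhb, Fshb, Cga and Foxl2 were above the background controls on every array. Gnrhr, the GnRH receptor gene, was at or below them on 5 arrays and Nr5a1 on 1. The summed signal of the 6, nearly all of it from Cga and Lhb, was 32142 to 473414 in vehicle and 71098 to 494334 in GnRH samples.

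**Figure D1:**
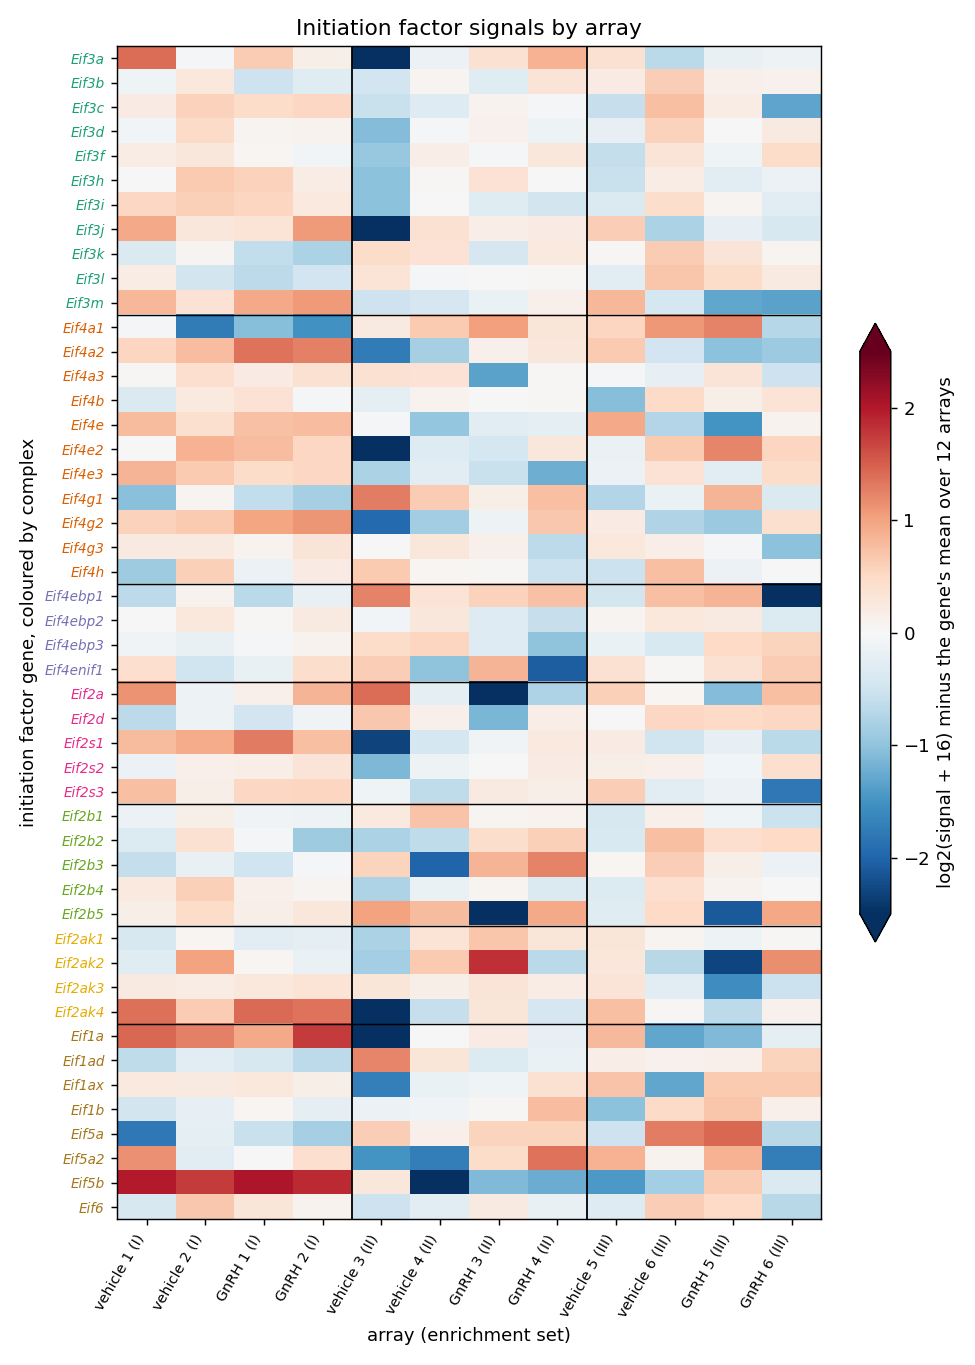
Heatmap of 48 initiation factor genes (rows, grouped and coloured by complex) on 12 arrays (columns, ordered by enrichment set, vehicle before GnRH). Colour gives log2(signal + 16) minus the gene's own mean over the 12 arrays. Vehicle 3 is the lowest array for 16 of the 48 genes (33.3%, against 29.6% of all genes), and Eif5b is high on each of the 4 arrays of set I.

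The first comparison asked whether 40 min of GnRH altered the initiation factor messenger RNAs. None of the 48 genes passed the test: 24 were nominally higher and 24 lower in GnRH than in vehicle samples (20 and 28 without vehicle 3), and 0 were called (limma with the enrichment set in the model, adjusted p from 0.981 to 1.00, n = 6 per group). At an unadjusted p under 0.05 there were also 0, against 3.45% of all probe sets tested. Over all 18625 probe sets the adjusted threshold was passed by 0.00537%, which is 1 probe set. The median difference was -0.01 on the log2 scale, beside 0.04 for all 10680 genes tested, and the differences ran from -0.95 (Eif2a) to 0.96 (Eif4e2). In these bulk samples fewer cells of a type and less RNA per cell cannot be told apart.

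The precision of these differences varied between genes. The 95% interval of the difference, taken gene by gene without adjustment, lay within a 2-fold change in either direction for 27 of the 48 genes (56.2%), against 34.2% of all genes. For 2 of them it lay within a 1.50-fold change, and for the other 21 of the 48 it reached past 2-fold. Leaving out a single array turned the sign of the difference for 19 of the 48 genes. The initiation factors were measured with brighter probe sets than the average gene, with a median of the mean log2 signals of 10.25 beside 9.17, and a median residual SD of 0.59 beside 0.73. No member had GnRH and vehicle signals that did not overlap, a pattern seen in 0.131% of all genes.

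**Figure D2:**
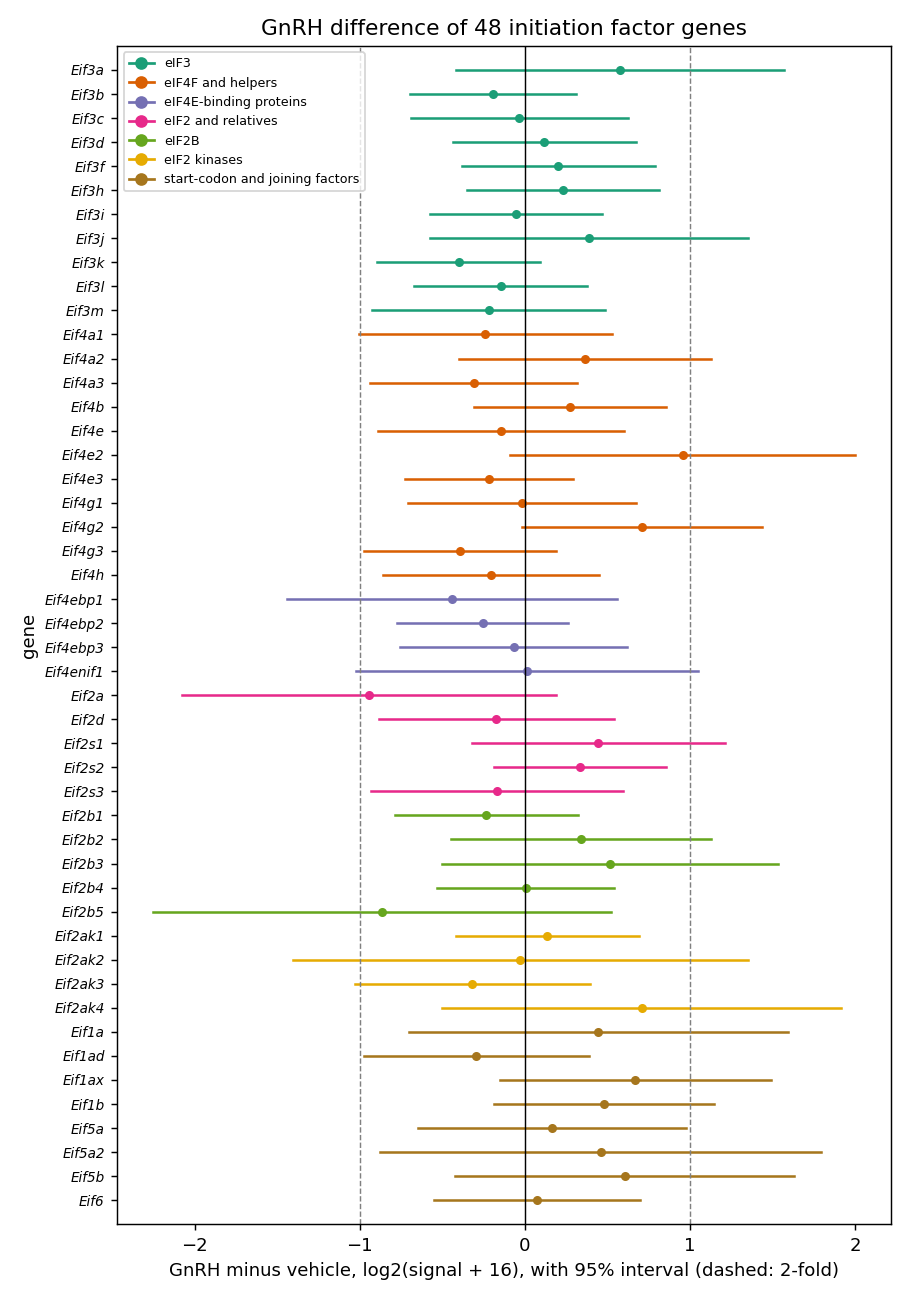
GnRH minus vehicle difference of each of the 48 genes on the log2(signal + 16) scale (x axis; points) with its 95% interval from the limma fit (lines; n = 6 per group), grouped and coloured by complex. Each interval includes 0, and those of 27 genes lie wholly between the dashed lines that mark a 2-fold change.

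The subunits of eIF3, the scaffold of the small ribosomal subunit, were the most tightly measured group. Of 11 genes, 5 were nominally higher and 6 lower, with a median difference of -0.03, and the intervals of 9 of the 11 stayed within 2-fold. Without vehicle 3, 3 were higher and 8 lower. Their median residual SD was 0.43. Eif3k, a peripheral subunit, had signals of 1692, 2559 and 3426 in vehicle samples (lowest, median and highest) and of 1259, 1961 and 2733 in GnRH samples. The groups overlapped, and the difference of -0.40 ± 0.23 (log2, SE) had a 95% interval from -0.90 to 0.09. It was negative in each set (-0.56, -0.50 and -0.14 in sets I, II and III), but did not pass the test (limma adjusted p = 0.981). Eif3a, the largest subunit and one that nucleates the complex, had signals of 148, 959 and 2728 in vehicle and of 900, 1235 and 1870 in GnRH samples. Its difference of 0.57 ± 0.47 rested on vehicle 3, whose value of 148 was below the background controls of that array, and was 0.08 without that array. In vehicle 3, 9 of the 11 eIF3 genes lay below their own mean, with a median deviation of -0.95.

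The genes of eIF4F and its helpers gave the differences with the smallest p. Of 11 genes, 4 were higher and 7 lower, with a median of -0.14. Eif4g2 encodes a scaffold related to eIF4G that lacks the eIF4E-binding part and serves initiation without the cap complex. Its signals were 1482, 5061 and 9125 in vehicle and 3021, 8441 and 12491 in GnRH samples, with wide overlap. The difference was 0.71 ± 0.34 (log2, SE; interval -0.02 to 1.44; unadjusted p = 0.0560, limma adjusted p = 0.981), and 0.43, 1.69 and 0.0048 in sets I, II and III. It was 0.45 without vehicle 3. A further probe set of Eif4g2 gave 0.58. Eif4e2 encodes a cap-binding relative of eIF4E that represses translation. Vehicle 3 was lowest with 65.8, under its background controls, while the other vehicle samples reached 973 to 2239 and the GnRH samples ran from 892 to 2861. Its difference of 0.96 ± 0.49 became 0.37 without vehicle 3.

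Eif4e, the cap-binding protein itself, differed by -0.14 ± 0.35 and the helicase genes Eif4a1 and Eif4a2 by -0.24 ± 0.36 and 0.36 ± 0.36, and none passed the test. Without vehicle 3 that of Eif4a2 was 0.11, and the sign turned for Eif4a1 without GnRH 6 (0.041) and for Eif4e without vehicle 5 (0.15). Eif4g1, the main scaffold, differed by -0.02 ± 0.33. Among the eIF4E-binding proteins, 1 of 4 was nominally higher and 3 were lower, with a median of -0.16. Eif4ebp2 was steady across arrays, with signals of 1126, 1333 and 1440 in vehicle and 789, 1077 and 1389 in GnRH samples. Its difference was -0.26 ± 0.25. Eif4ebp1, the best known target of mTOR in this group, had signals of 577, 1077 and 2200 in vehicle and 136, 1094 and 1670 in GnRH samples. The difference of -0.44 ± 0.47 turned to 0.066 without GnRH 6, the array with 136.

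For eIF2 and its relatives, 2 of 5 genes were nominally higher and 3 lower (median -0.17). Eif2s1, Eif2s2 and Eif2s3, the subunits proper, differed by 0.45 ± 0.36, 0.33 ± 0.25 and -0.17 ± 0.36. Without vehicle 3 those of Eif2s1 and Eif2s2 were 0.085 and 0.16, and that of Eif2s3 turned to 0.16 without GnRH 6. Eif2s2 was nominally higher in each set, by 0.25, 0.73 and 0.023. Eif2a, a separate factor that can deliver initiator transfer RNA without eIF2, had signals of 356, 537 and 1118 in vehicle and 50.5, 346 and 759 in GnRH samples. Its difference of -0.95 ± 0.54 was -0.023, -2.32 and -0.49 in sets I, II and III. GnRH 3, of set II, had the 50.5, a value under that array's background controls. The difference was -0.53 without GnRH 3 and -0.57 without vehicle 3. The subunit genes of eIF2B, the exchange factor, had 3 of 5 nominally higher (median 0.00). Eif2b3 and Eif2b5 differed by 0.52 ± 0.48 and -0.87 ± 0.66. Eif2b3 was at background in vehicle 4 (88.9), without which its difference was 0.043. Eif2b5 was at background in GnRH 3 and 5 (20.8 and 45.0), and its difference was -0.27 without GnRH 3.

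Among the kinases of eIF2, 2 of 4 genes were higher and 2 lower (median 0.05). Eif2ak3 encodes PERK, the kinase of the endoplasmic reticulum that responds to unfolded proteins. Its signals were 467, 650 and 708 in vehicle and 181, 660 and 719 in GnRH samples, and the difference was -0.32 ± 0.34. The GnRH group was spread by GnRH 5 and 6 (181 and 378), while the other 4 GnRH samples had 642 to 719, and the difference was -0.098 without GnRH 5. Eif2ak4, which encodes the amino acid sensor GCN2, differed by 0.71 ± 0.57, and by 0.02 without vehicle 3, where the signal of 27.3 was under the background controls.

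The group named start-codon and joining factors took every tested Eif1, Eif5 and Eif6 symbol. It held Eif1a, Eif1ad, Eif1ax, Eif1b, Eif5a, Eif5a2, Eif5b and Eif6, so the symbol set its membership and not a shared function. It had 7 of 8 genes nominally higher, with a median of 0.45, the highest of the groups. By set the median was 0.03, 0.48 and 0.09, and without vehicle 3, of set II, 5 of 8 were higher with a median of 0.23. None passed the test. Eif1ax, which with eIF1 keeps the ribosome scanning, had signals of 207, 732 and 1183 in vehicle and 665, 894 and 1135 in GnRH samples. The difference was 0.67 ± 0.39, and -0.022, 1.07 and 0.95 by set, with 0.42 without vehicle 3 and 0.38 without vehicle 6. Eif1a turned from 0.44 to -0.17 without vehicle 3. Eif1b, a close relative of eIF1, had signals of 376, 693 and 1091 in vehicle and 657, 834 and 1352 in GnRH samples, and differed by 0.48 ± 0.31, with 0.23, 0.52 and 0.68 in the 3 sets and 0.27 without vehicle 5. Eif5b, the GTPase that joins the large subunit, differed by 0.60 ± 0.48, by 0.15 without vehicle 4 and by 1.10 without vehicle 3. Eif5a and Eif6, the first a factor that also relieves stalled ribosomes and the second a keeper of free large subunits, differed by 0.17 ± 0.38 and 0.073 ± 0.29, and each turned below 0 without 1 array (-0.078 without GnRH 5 and -0.061 without vehicle 1).

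The study's own criterion asks for a fold of at least 1.50 with at least 50% of the 36 pairs of GnRH and vehicle arrays at that fold. On this scale it was met upward by 1 member, Eif4g2 (50.0% of pairs), and downward by 1, Eif2a (55.6% of pairs). That is 2.08% of the members in each direction, beside 5.79% of all genes upward and 6.24% downward. Direction agreed in all 3 sets for 13 of the 48 genes (27.1%), 6 higher and 7 lower, beside 23.7% of all genes. In set II alone, which holds vehicle 3, the median of the 48 differences was 0.37, and it was 0.02 in set I and -0.16 in set III.

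The second comparison was between the 3 preparations. Here 3 of the 48 genes passed the limma F test over all probe sets (adjusted p under 0.05), a share of 6.25% that lay near the 6.87% of all genes and the 6.02% of all probe sets. Eif5b and Eif4e3 were lower and Eif4a1 was higher in sets II and III than in set I. At an unadjusted p under 0.05 there were 14 members (29.2%), which equals the 29.2% of all genes. The order I above both II and III held for 27 members (56.2%, against 39.8% of all genes) and the opposite for 13 (27.1%, against 36.7%).

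Eif5b showed the largest difference. In set I its signals were 3649 and 3099 in vehicle and 3753 and 3398 in GnRH samples. In set II they were 1125 and 65.1 in vehicle and 416 and 380 in GnRH samples, and in set III 330 and 501 in vehicle and 1437 and 709 in GnRH samples. Each array of set I lay above each array of the other sets, as for 6.64% of all genes. The fitted level of set I was 9.82-fold that of set II and 5.29-fold that of set III (log2 differences -3.30 ± 0.59 and -2.40 ± 0.59, SE, n = 4 arrays per set; limma F test adjusted p = 0.0118). The value of vehicle 4, 65.1, was under its background controls, so the fold over set II depends on that array. It was 6.11-fold without vehicle 4 (adjusted p = 0.0133) and 16.5-fold without vehicle 3. Further Eif5b probe sets gave -1.50 and -0.91 for set II against set I and did not pass. With the mean over a gene's probe sets in place of 1 probe set, Eif5b was no longer called, and Eif1a was called with Eif4a1 and Eif4e3.

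Eif4e3 encodes a divergent member of the eIF4E family. Its signals were 4204, 3703, 3208 and 3333 in set I, 1346, 1903, 1575 and 988 in set II, and 2119, 2992, 1906 and 3235 in set III, in the order of vehicle then GnRH samples. Sets I and II did not overlap, and set III lay between them with GnRH 6 reaching into the range of set I. The differences from set I were -1.34 ± 0.29 for set II and -0.52 ± 0.29 for set III (limma F test adjusted p = 0.0339). A further probe set gave -2.11 and -0.37 (adjusted p = 0.0800).

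Of the helicase paralogs Eif4a1 and Eif4a2, the first passed the test and the second did not. Eif4a1 had signals of 1760, 526, 848 and 618 in set I, 2119, 2838, 3703 and 2226 in set II, and 2609, 3844, 4281 and 1099 in set III. It was 3.13-fold higher in set II and 3.10-fold higher in set III than in set I (log2 1.65 ± 0.44 and 1.63 ± 0.44; limma F test adjusted p = 0.0433). Eif4a2 had signals of 6594, 7737, 11650 and 10845 in set I, 1344, 2553, 4930 and 5509 in set II, and 7137, 3246, 2228 and 2415 in set III. Its differences were -1.52 ± 0.44 and -1.42 ± 0.44 and missed the threshold (adjusted p = 0.0622). In set III the high value was that of vehicle 5, whose spike-in controls were dim.

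The promoters of these paralogs and of Eif5b are shown because Eif5b has the largest fitted difference between sets and Eif4a1 is the called gene with higher signal in sets II and III, set here beside its paralog. Each line gives the 250 bases before the annotated start from RefSeq, 5′ to 3′, with capitals marking matches on either strand to a GC box (GGGCGG), an ETS-type core (CCGGAAG), an E-box (CACGTG) or a TATA box (TATAAA).
Eif4a1 (GRCr8, chr10:54888603-54888852, minus strand): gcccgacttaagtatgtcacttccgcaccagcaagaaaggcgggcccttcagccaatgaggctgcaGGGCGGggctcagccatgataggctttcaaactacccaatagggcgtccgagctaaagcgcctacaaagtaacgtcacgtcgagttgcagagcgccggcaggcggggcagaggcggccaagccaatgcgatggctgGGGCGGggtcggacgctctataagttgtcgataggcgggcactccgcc
Eif4a2 (GRCr8, chr11:91275324-91275573, minus strand): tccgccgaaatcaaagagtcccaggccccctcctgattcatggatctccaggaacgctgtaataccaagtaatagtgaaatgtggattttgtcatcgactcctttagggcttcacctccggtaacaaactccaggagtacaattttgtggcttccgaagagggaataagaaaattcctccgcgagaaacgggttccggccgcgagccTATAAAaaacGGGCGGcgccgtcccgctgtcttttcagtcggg
Eif5b (GRCr8, chr9:47718456-47718705, plus strand): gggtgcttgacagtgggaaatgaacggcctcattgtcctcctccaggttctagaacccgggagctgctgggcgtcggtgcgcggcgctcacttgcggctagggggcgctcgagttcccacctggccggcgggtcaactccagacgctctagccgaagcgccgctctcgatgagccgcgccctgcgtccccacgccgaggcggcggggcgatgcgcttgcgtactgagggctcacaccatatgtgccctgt
The Eif4a1 window holds 2 GC boxes and the Eif4a2 window 1 GC box and 1 TATA box, which begins 43 bases before the start. The Eif5b window holds no match to the motifs searched and has 67.6% G and C. Of the 48 genes, 44 matched the promoter table by symbol, with 47 windows. A GC box lay in 30 of the 47 (63.8%, against 30.5% of all 33469 windows), an ETS-type core in 19 (40.4% against 7.27%), an E-box in 8 (17.0% against 5.59%) and a TATA box in 2 (4.26% against 12.9%). Each motif was counted on its own, including where matches of different motifs overlap, and a match is a description of the sequence only.

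Of the other genes with the smallest p between sets, the 5 that missed the threshold were lower in sets II and III: Eif4a2, Eif2s1, Eif1a, Eif2ak4 and Eif4g2. Eif2s1, the eIF2 subunit that the kinases phosphorylate, had signals of 1984, 2182, 2818 and 1936 in set I and of 217 to 1355 on the other 8 arrays, with no overlap. Eif1a likewise had 3397, 2999, 2407 and 4243 in set I and 92.0 to 2200 elsewhere. In all 3 members (6.25%) had set I wholly above the rest, against 6.64% of genes, and 0 wholly below, against 2.98%. Eif1a differed by -2.23 ± 0.67 and -1.81 ± 0.67, and its other tested probe sets agreed in direction (-2.15 and -2.45 for set II). Eif4g2 did not: the probe set used here was lower by -1.40 and -1.10 (adjusted p = 0.0843), while another of its probe sets was higher by 1.21 and 1.88 (adjusted p = 0.0227). The direction of Eif4g2 between sets therefore depends on the probe set. Over the 15 further tested probe sets of 12 member genes, 9 had the sign of the chosen probe set for set II against I, 11 for set III against I, and 10 for GnRH against vehicle. Those with the other sign for GnRH belonged to Eif1a (-1.52), Eif3a (-0.09), Eif4e (0.99), Eif4e3 (0.38) and Eif5b (-0.16).

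**Figure D3:**
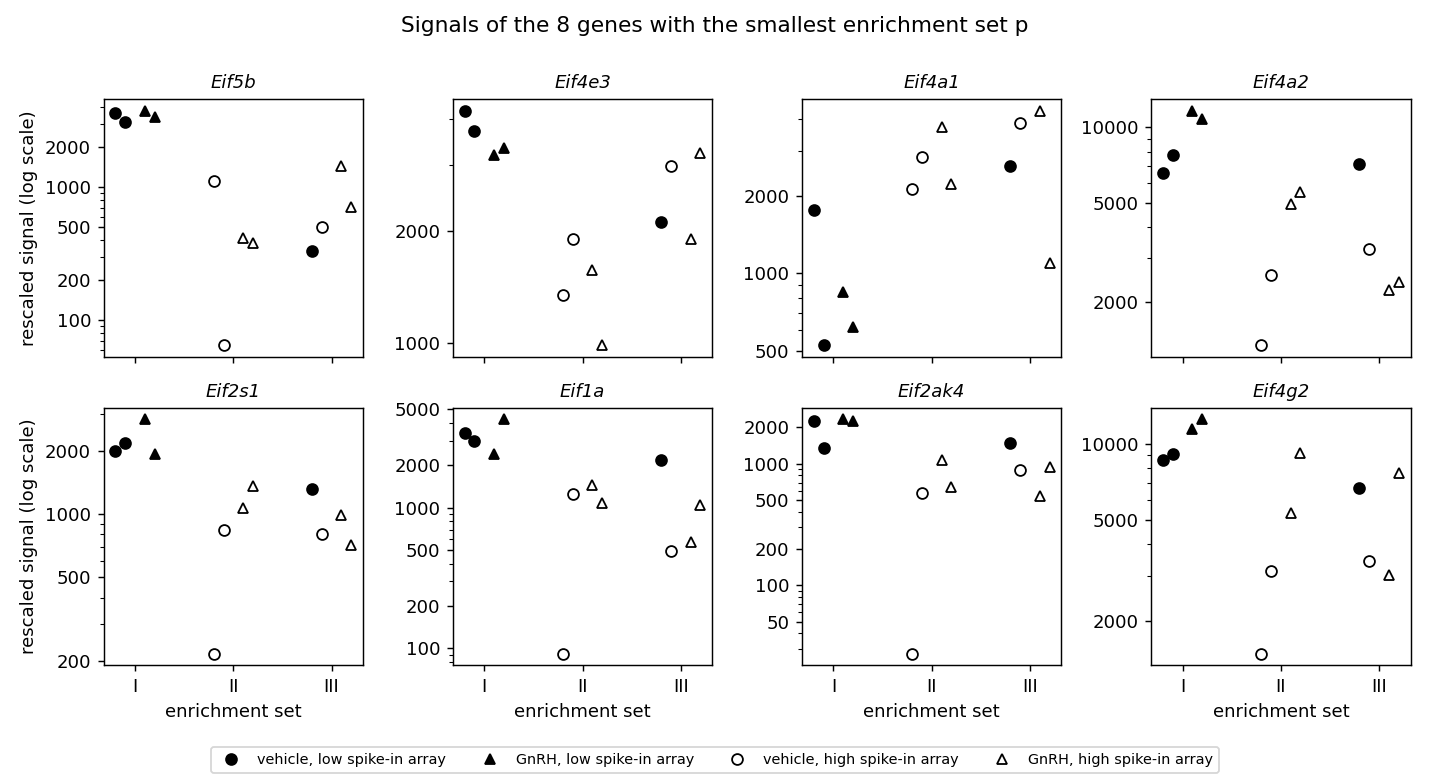
Rescaled signal (y axis, log scale) of the 8 genes with the smallest p between enrichment sets (x axis), with 1 point per array; circles are vehicle, triangles GnRH, filled points the 5 arrays with low spike-in signal and open points the other 7. Eif5b, Eif2s1 and Eif1a are higher on the 4 arrays of set I than on any other array, and for Eif4a2 the filled point of set III (vehicle 5, 7137) lies with set I.

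The spike-in level moved with the preparation, since the 4 arrays of set I all had dim controls. With the spike-in level of each array as a covariate, 0 of the 48 genes passed the F test, and Eif5b had an adjusted p of 0.0897. Of all probe sets 0.14% passed with that covariate, against 6.02% without it. Vehicle 5, dim in its controls although of set III, had higher signals than vehicle 6 for Eif4a2 (7137 against 3246) and Eif1a (2200 against 495). For Eif5b it had 330 against 501, below each array of set I. The 5 arrays with low spike-in signal did not overlap with the other 7 for 5 members (10.4%, against 11.6% of all genes): Eif1a, Eif2ak4, Eif3m, Eif4a2 and Eif4e, each higher on the 5.

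Marker genes of pituitary cell types moved with the sets as well. The summed signal of the 6 gonadotrope markers ran from 64561 to 99800 on the arrays of set I, from 250475 to 473414 on those of set II and from 32142 to 494334 on those of set III. That of the 2 somatotrope markers was 39512 to 69015, 422520 to 1056450 and 16452 to 596905, and that of the 1 lactotrope marker 29746 to 46853, 107826 to 122433 and 18279 to 76005. The lowest set III value in each of these was that of vehicle 5. Within the gonadotrope list the markers differed: Cga had 43179 to 66081 in set I and 200789 to 348827 in set II, whereas Gnrhr had 291 to 469 and 70.4 to 230. In set II the Gnrhr signals of vehicle 3, vehicle 4 and GnRH 3 were under the background controls of their arrays. The summed signal of the 2 thyrotrope markers was lower in set II (3404 to 9366) than in set I (9377 to 23991), by a narrow gap. Each marker alone overlapped between these sets. Tshb had 8764 to 23303 in set I and 2596 to 9137 in set II, and Trhr 467 to 689 and 22.4 to 808. The 2 corticotrope markers summed to 823 to 1685, 436 to 976 and 311 to 817 in the same order, so that sets I and III did not overlap. Pomc carried this, with 674 to 1516 in set I and 34.1 to 423 in set III, while Tbx19 had 148 to 304 and 75.8 to 783. Pomc was at or below the background controls on 5 arrays, GnRH 5 and GnRH 6 of set III among them, and Tbx19 on 1. The ranges of folliculostellate, endothelial, fibroblast, leukocyte and erythrocyte markers overlapped between the 3 sets, and no marker measured was at 0. The part of spike-in level and of cell makeup in the set differences was not tested beyond the covariate above.

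The calls between sets also moved with single arrays. Without vehicle 1 or GnRH 1, both of set I, 0 members passed, beside 0.682% and 0.736% of all probe sets. Without vehicle 2, GnRH 2 or GnRH 4 there was 1, Eif5b, beside 2.01%, 0.94% and 4.32% of all probe sets. Without vehicle 3 there were 7, beside 8.85%, and without vehicle 5 there were 9, beside 12.5%. Eif5b passed in 10 of the 12 omissions (adjusted p up to 0.0728), Eif4e3 in 7 and Eif4a1 in 3.

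**Figure D4:**
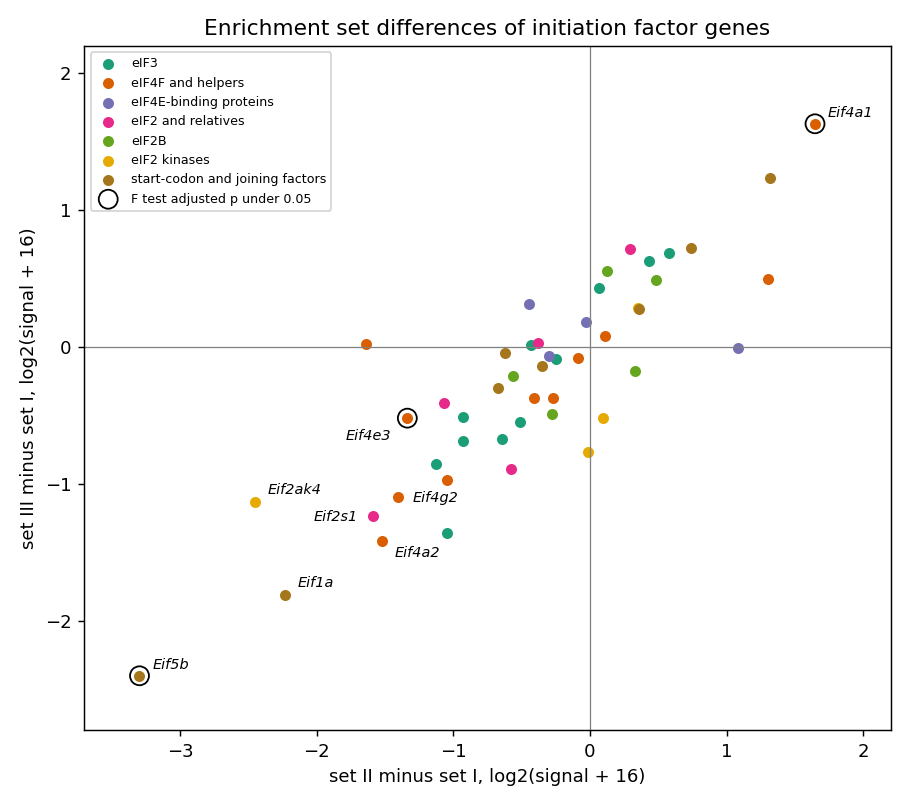
Difference of set II from set I (x axis) against that of set III from set I (y axis) on the log2(signal + 16) scale for the 48 genes, coloured by complex; open circles mark the 3 genes with a limma F test adjusted p under 0.05, and the 8 genes with the smallest p are named. Both axes share the arrays of set I; Eif5b lies at -3.30 and -2.40 and Eif4a1 at 1.65 and 1.63.

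By complex, the median differences of sets II and III from set I were -0.51 and -0.51 for eIF3, -0.41 and -0.37 for eIF4F and its helpers, -0.58 and -0.41 for eIF2 and relatives, and -0.49 and -0.09 for the start-codon and joining factors. They were 0.13 and -0.18 for eIF2B, 0.04 and -0.64 for the kinases and -0.16 and 0.09 for the eIF4E-binding proteins. Over all genes the medians were -0.12 and 0.02. These contrasts share the arrays of set I. Within eIF3, 7 of 11 genes were nominally lower in both sets, and Eif3b, Eif3k and Eif3l were nominally higher in both (Eif3k by 0.58 and 0.69, Eif3l by 0.43 and 0.63). None of the 11 passed, and differences between subunits were not tested.

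The last comparison asked whether the GnRH difference varied with the preparation. The limma test of that interaction passed for 0 of the 48 genes and for 0% of all probe sets (lowest adjusted p among members 0.834). At an unadjusted p under 0.05 there were 3 members (6.25%), against 5.12% of all genes. For Eif4a2 the GnRH difference was 0.65 within set I, 1.48 within set II and -1.05 within set III, where vehicle 5 had 7137 and the GnRH arrays 2228 and 2415. For Eif3m, a subunit of eIF3, it was 0.40, 0.45 and -1.51 in the same order, and for Eif4ebp3, a further eIF4E-binding protein, 0.16, -1.16 and 0.80. Without vehicle 4, which leaves vehicle 3 as the only vehicle array of set II, 4 members passed (Eif2ak4, Eif3a, Eif4a2 and Eif4e2, adjusted p from 0.00904 to 0.0477), along with 4.38% of all probe sets.

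Other genes of translation were read from the same GnRH fit. Of 47 tested genes in 4 lists, 0 passed (limma, adjusted over all probe sets), and 0 had an unadjusted p under 0.05. Among elongation factors 4 of 9 were nominally higher (median -0.15), with Eef1a2 at -0.56 ± 0.37 (-0.37 without vehicle 3) and Eef1a1, which brings transfer RNA to the ribosome, at 0.74 ± 0.56. Eef1a1 differed by 0.12, 0.45 and 1.65 in the 3 sets, and in set III vehicle 5 had 13577 and vehicle 6 163273. Among termination, recycling and rescue factors 6 of 7 were higher (median 0.40), with the ribosome recycling genes Denr at 0.85 ± 0.49 and Abce1 at 0.49 ± 0.32. Denr differed by -0.14, 2.12 and 0.58 in the 3 sets, with vehicle 3 (66.5) under its background controls, and by 0.29 without that array. Abce1 differed by 0.47, 0.42 and 0.57. Among 19 initiation helpers and regulators 7 were higher (median -0.11), with Gcn1, the partner of the kinase GCN2, at 1.19 ± 0.66 and Mknk1, a kinase of eIF4E, at -0.79 ± 0.49. Gcn1 was under the background controls in vehicle 3, vehicle 4 and GnRH 5 (40.0, 66.5 and 84.1), and its difference was 0.0025, 2.90 and 0.67 by set. Mknk1 was under them in GnRH 5 (82.4), and its difference was 0.13, -0.89 and -1.61 by set.

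The integrated stress response genes, whose translation or transcription follows eIF2 phosphorylation, had 5 of 12 nominally higher (median -0.21). Cebpb differed by -0.51 ± 0.28 and Chac1 by 0.45 ± 0.28 (0.20 without vehicle 3). Atf4 and Ddit3, the central transcription factors of that response, differed by 0.07 ± 0.26 and 0.08 ± 0.24. Between sets, 7 of the 47 genes passed (14.9%, against 6.87% of all genes). Pdcd4, an inhibitor of eIF4A named here after its values were seen, was among them, with 10318 to 13512 in set I and 1386 to 6615 on the other 8 arrays. Its differences from set I were -2.15 and -2.41 (limma F test adjusted p = 0.0103). It also split by spike-in level, since the 6615 was that of vehicle 5 and the 7 arrays with bright controls had 1386 to 4005.

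The 1 member left out by the filter, Eif2s3y, encodes a Y-linked copy of an eIF2 subunit, and the animals were female. Its signal was 0.602 to 22.9 in set I, and in set III 0.901 to 30.8. On the arrays of sets I and III only that of vehicle 1 (22.9) was above the background controls (14.8). In set II it was 17.1 in vehicle 3 and 212, 167 and 199 in vehicle 4, GnRH 3 and GnRH 4, above the background controls of those arrays (97.5, 89.3 and 59.0). Without the filter the F test between sets gave it an adjusted p of 0.0245.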

How the data were processed

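The authors deposited 1 linear intensity (signal) per probe set and array, made with GCOS, Affymetrix's scanner software, as the submitters' processing notes name it; its version is not given in the sources used here. Amplification used T7 polymerase in a pair of rounds, per the labels' protocols. Signals were scaled so that the mean of the 31042 probe sets that are not controls, without the top and bottom 2%, was 500 on every array, and log2 was taken after adding a pseudocount of 16, so folds of dim genes are understated. Before scaling, trimmed means of the 12 arrays were 497 to 499. Probe sets at or above the 40th percentile of mean log2 value were tested (18625). limma 3.58.1 under R 4.3.3 fitted enrichment set and agent with an intensity trend. F tests compared sets and the interaction. p-values were adjusted by Benjamini-Hochberg over all tested probe sets, threshold 0.05. The scripts were tested on simulated data.

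Members and lists were chosen with earlier results of these data known. Named genes are the 2 members of each complex with the smallest GnRH p, the 8 smallest between sets, the 3 smallest for the interaction and the 2 smallest of each other list; further members, Atf4, Ddit3 and Pdcd4 were added for their roles after values were seen. Alternatives changed the pseudocount, filter, normalization, variance model, probe set rule, spike-in covariate, set term, replicate block and arrays used. The labels call the samples biological replicates but tie several to 1 preparation, and nothing says that its wells came from separate animals, so p-values measure the spread between these samples. The number of arrays limits the precision. Promoter sequences are RefSeq's, build GRCr8.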

Additional observations from a re-analysis of the deposited data

Results flagged for a closer look

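Within the 6 vehicle and the 6 GnRH samples, 22 named genes were examined for a single array far from its group, and 4 of 44 groups held one. Chance gives about 1 in 20 for independent groups that were not picked by their values. These genes were picked for a small p in the same data and share their arrays, so that rate does not apply directly. Each value below is the gap to the nearest array as a share of the group's whole log2 range, and each passed Dixon's critical value for 6 samples. Vehicle 3 was far below the other vehicle samples for Eif2s2 (0.772; signal 984 against 1952 in the next), for Eif4e2 (0.752; 65.8 against 973) and for Eif2ak4 (0.660; 27.3 against 574). Vehicle 6 was the lowest for Eif2ak3 (0.696; 467 against 624).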

How the results depend on the processing

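The count of members called for GnRH was 0 in the model used here and in each alternative fit, with adjusted p from 0.648 to 1.00, and 2 by the study's criterion. With the replicate block, which uses the replicate numbers of the labels in place of the enrichment set, it was 0 as well, and the median difference was -0.01. The numbers share only the preparation: within sets the replicate differences of vehicle and GnRH arrays correlated at -0.03, -0.03 and -0.14, and 3 of 12 samples correlated best with their own number. The median was 0.37 in set II alone and, leaving out single arrays, lay between -0.077 and 0.12.

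The count called between sets, 3, was 6 with a pseudocount of 64, 1 with no intensity trend, 12 with array weights and 0 with the spike-in level as covariate. The shares of all probe sets called were 8.75%, 2.7%, 24.3% and 0.14% in the same order, against 6.02% in the model used here. A contrast of sets II and III on the 7 arrays with bright controls gave 0, but it leaves out set I and so could not hold differences from that set. Leaving out single arrays gave 0 to 9, and for the interaction 0 to 4. Between sets, the share of all probe sets called ran from 0.682% to 12.5% over these omissions. The cause was not tested. The count in the other translation lists was 0 throughout.

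The sign turned under at least 1 alternative for 39 of the 48 genes, none of them called for GnRH in any fit. For the 2 genes of each complex with the smallest p the turned values were these. With array weights Eif3a gave -0.059. In set I alone Eif1ax gave -0.022, Eif2ak3 0.10, Eif3a -0.29 and Eif4ebp2 0.00022. In set II alone Eif2ak3 gave 0.026. In set III alone Eif2ak4 gave -0.67, Eif2b3 -0.33 and Eif3a -0.012. Among the 5 arrays with dim controls Eif1ax gave -0.18, Eif2ak3 0.061, Eif2b3 -0.019, Eif2b5 0.11, Eif3a -0.19 and Eif4ebp2 0.018. Leaving out single arrays moved Eif4ebp1 from -0.80 (without GnRH 5) to 0.066 (without GnRH 6).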
